A study of Caenorhabditis elegans with 4 samples.

Results

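Chromosome IV of Caenorhabditis elegans carried 2025 of the 11716 peaks in the combined list of HTP-3 binding sites, together with 589 of 3295 peaks in the list of ChIP replicate 1 and 694 of 4007 in that of replicate 2. A peak here is an interval in which a peak caller found more immunoprecipitated fragments than background. The members were taken by chromosome name alone, so no measured value entered their choice. The study consisted of 4 libraries, 2 of HTP-3 ChIP DNA and 2 of input DNA, all from whole worms of the strain fem-2(b245), genotype fem-2(b245)III, labelled as hermaphrodite young adults that contain a germline and kept at 20 °C. fem-2 is a sex-determination gene that promotes male fates, including sperm, and b245 is a temperature-sensitive allele of it. The growth protocol speaks of gravid adults while the stage label says young adults, and the lists cannot settle which holds. All libraries shared this genotype, stage and temperature, so no second condition exists for comparison. The extracts came from whole animals and include somatic nuclei, and the share of germline nuclei was not measured. Nothing in the labels says that the 2 replicates were separate cultures, and their spread may be technical.

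HTP-3 carries a HORMA domain and belongs to the axis of meiotic chromosomes, the proteinaceous core along which sister chromatids are organised as loops. It recruits the other HORMA-domain axis proteins of the worm, HIM-3, HTP-1 and HTP-2, and is required for pairing, synapsis and the formation of meiotic double-strand breaks. Worm autosomes are divided into a gene-dense centre with little recombination and arms that are richer in repeats and recombine more. Each chromosome pairs through a pairing centre near one end; that of IV lies at the left end and is bound by the zinc-finger protein ZIM-3. IV is also known for its piRNA genes, small germline transcription units whose RNA products load onto the Argonaute PRG-1 and which lie mostly in a pair of broad spans of this chromosome.

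The depth of the libraries is unknown, because the lists give only intervals and a score per peak. Scores are the authors' own, on a scale that is not stated, and were compared only within 1 list. In the replicate lists a score of 3100.0 recurred, in 9 IV peaks of replicate 1 and 8 of replicate 2, with 1 IV peak above it in each, so ranks at the very top of these lists are tied. Shares of peaks are given with 95% Wilson intervals, which cover counting error only and treat neighbouring peaks as independent. No test was run: the lists cover 1 group, with no other group to compare, and peaks of 1 chromosome are not replicates. All coordinates are those of the WormBase WS220 build. No genome sequence or gene annotation of that build was used, so the genes and the sequence at these peaks were not analysed here.

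IV was close to the pooled density of the other nuclear chromosomes. It held 115.9 combined peaks per Mb over its 17.47 Mb, against 117.1 on the other nuclear chromosomes together, a ratio of 0.990. Replicate 1 had 33.7 peaks per Mb on IV and 32.7 elsewhere, and replicate 2 had 39.7 and 40.02. The replicate ratios, 1.03 and 0.992 (mean 1.01 ± 0.027, SD, n = 2), lie on either side of 1. IV did not differ from the pool of the other chromosomes by more than this spread. That pool averages denser and sparser chromosomes. In the combined list III, I, II, X and V held 160.0, 145.7, 120.2, 93.9 and 85.5 peaks per Mb. In the same order replicate 1 gave 46.2, 37.8, 33.8, 25.4 and 25.5, and replicate 2 gave 51.9, 50.2, 41.2, 35.2 and 28.1. In all 3 lists IV lay below III, I and II and above X and V. Peaks took up 4.88% of the length of IV for the combined list, 2.12% for replicate 1 and 7.90% for replicate 2.

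The 2 replicate lists differed more in the width of their peaks than in their number. The median width on IV was 300.0 bp in the combined list (quartiles 207 and 461), 481 bp in replicate 1 (329 and 669) and 1402 bp in replicate 2 (1119 and 2361). In 276 cases exactly 1 IV peak of replicate 1 met exactly 1 of replicate 2. Replicate 2 was the wider in all 276 of these pairs, with a median width ratio of 3.00 and quartiles of 2.28 and 4.49, and the extra length was alike on the left (median 391 bp) and on the right (403 bp). The median distance between their midpoints was 78.8 bp, with an upper quartile of 296.6 bp. A midpoint distance cannot exceed the mean of the distances at the 2 edges, so its being smaller than these was given in advance. The pairs were chosen by overlap, which by itself limits the distance between midpoints, so they do not show how far the replicates share positions.

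Of the replicate 1 peaks on IV, 524 of 589 overlapped a replicate 2 peak by at least 1 bp (88.96%, interval 86.2 to 91.2). The other autosomes and X gave between 81.6% (V) and 88.7% (III). In the other direction, 373 of 694 replicate 2 peaks on IV overlapped replicate 1 (53.7%, interval 50.03 to 57.4), where the other chromosomes gave 48.9% (I) to 51.96% (V). The intervals overlap those of the neighbouring values, and IV was not set apart in this respect, except from V in the first direction. Across the 34 complete bins of 500 kb on IV, peak numbers in replicates 1 and 2 gave Pearson's r = 0.691 and Spearman's rho = 0.676. These bins share a chromosome and are no independent points.

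Among the combined peaks of IV, 478 (23.6%, interval 21.8 to 25.5) overlapped peaks of both replicates. A further 756 (37.3%) overlapped replicate 2 only, 51 (2.52%) replicate 1 only and 740 (36.5%) neither. IV was close to the other nuclear chromosomes in these shares, which there ran from 21.9% to 22.9% for both, 33.01% to 41.3% for replicate 2 only and 33.5% to 41.4% for neither. The peaks with support in both had medians of 34.4 in score and 616 bp in width, and those with support in neither 5.19 and 215 bp. Of the 405 highest-scoring combined peaks, 351 (86.7%, interval 83.0 to 89.6) were in both replicates, and of the 405 lowest-scoring 5 were (1.23%, interval 0.528 to 2.86). The median widths of these groups were 545 and 199 bp, and wider peaks meet an overlap of 1 bp more easily. The combined scores also cannot be taken as independent of the replicates, so part of this difference may be built in. A small set went the other way: 24 replicate 1 peaks and 14 replicate 2 peaks on IV had no combined peak, with median scores of 96.9 and 63.4 in their own lists, whose lowest scores are 50.02 and 50.01.

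**Figure D1:**
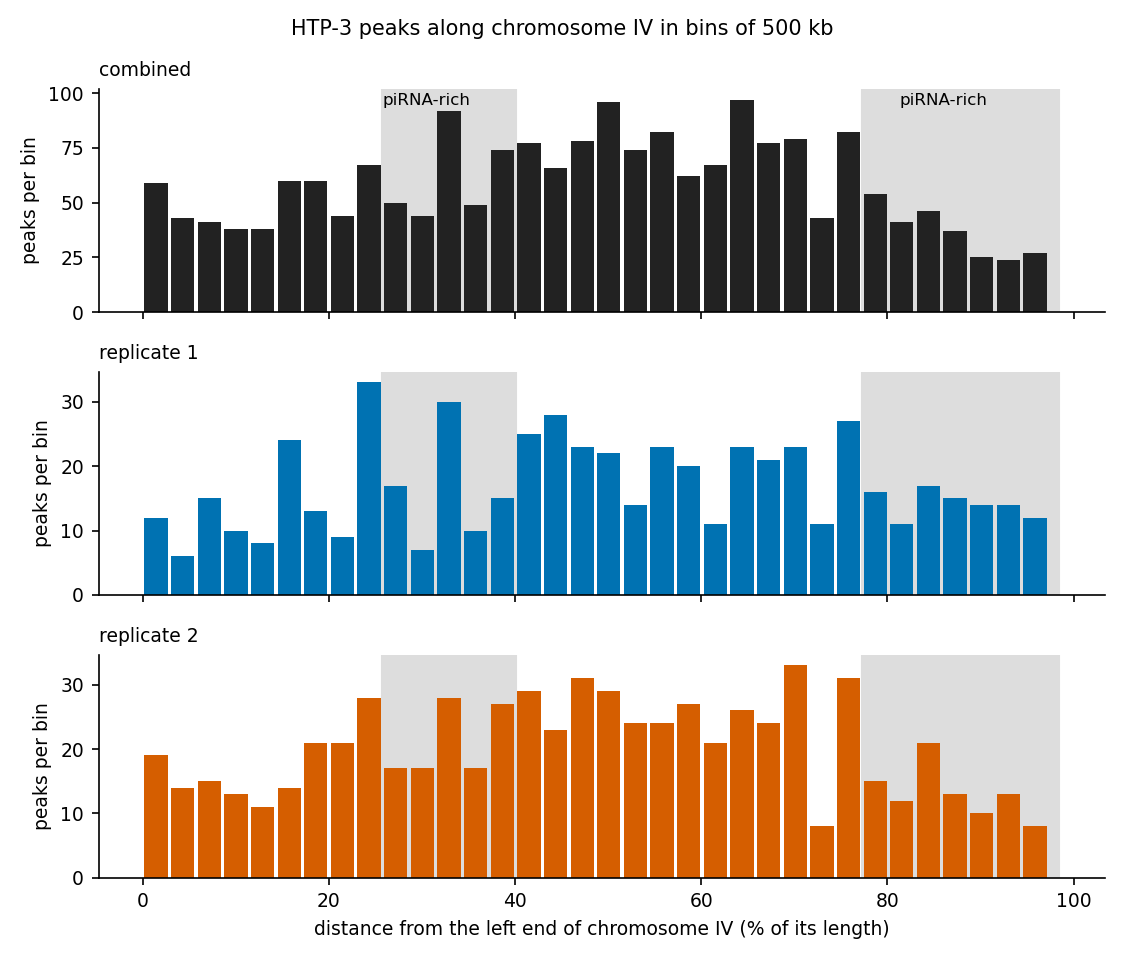
Peaks per 500 kb bin (vertical axis, number of midpoints) against distance from the left end of IV in percent of its length, for the combined list and both replicates; grey marks the piRNA-rich spans, and the last, incomplete bin is left out. In the combined list bins ranged from 24 to 97 peaks, high in the middle and lowest in the right piRNA-rich span.

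Along the chromosome, peaks were denser in the middle than in either outer part. The fall did not run on to the left tip. The first 500 kb bin held 59 combined peaks and the next 43, with 12 and 6 in replicate 1 and 19 and 14 in replicate 2. IV was cut into 3 equal parts of 5.82 Mb. In the combined list the middle part held 870 peaks (149.4 per Mb), the left part 617 (105.9) and the right part 538 (92.4). In replicate 1 the middle, left and right parts held 38.1, 31.4 and 31.6 peaks per Mb. In replicate 2 they held 50.8, 36.2 and 32.1. All 3 lists put the middle first, while the order of the outer parts was not stable, since in replicate 1 the left and right parts differed by 1 peak.

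The middle to outer ratio of density was 1.51 for the combined list, 1.21 for replicate 1 and 1.49 for replicate 2 (mean 1.35 ± 0.196, SD, n = 2). Replicate 1 thus showed the smallest contrast, and also the smallest of any autosome in that list, where I, II, III and V had 1.56 to 1.76. In replicate 2 the ratio on IV was likewise the lowest of the autosomes, which otherwise ran from 1.65 to 1.74, and in the combined list only III, at 1.44, was lower. The difference between IV and the other autosomes was not tested, and X, at 0.978 in the combined list, lay below all of them.

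Median scores in the middle part lay near those of the outer parts pooled, which hid a difference between left and right in the replicates. The median score was 7.32 in the combined list, against 7.95 in the outer parts. In replicate 1 the medians were 166.1 and 189.6 and in replicate 2 171.8 and 163.4. Taken apart, the left and right parts had 176.9 and 200.8 in replicate 1 and 143.7 and 203.3 in replicate 2. The right part thus had the highest median in both replicates, but not in the combined list (left 8.18, right 7.87). Width behaved differently by replicate. Replicate 2 peaks were wider in the middle part (median 1618 bp) than in the left (1283 bp) and right parts (1324 bp), while replicate 1 peaks were alike throughout (468, 495 and 486 bp). Of the 113 replicate 2 peaks of at least 3 kb, 63 lay in the middle part, 23 in the left and 27 in the right.

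Replicate support shifted along with position. In the middle part 43.4% of the combined peaks (378 of 870, interval 40.2 to 46.8) were matched by replicate 2 only, against 32.7% in the outer parts (378 of 1155, interval 30.1 to 35.5). Peaks matched by replicate 1 only numbered 8 in the middle part and 43 in the outer parts. The middle to outer density ratio was 2.0 among peaks of replicate 2 only, 0.372 among the 51 of replicate 1 only and 1.34 among peaks in both. In the middle part 212 of 222 replicate 1 peaks (95.5%, interval 91.9 to 97.5) overlapped replicate 2, and in the outer parts 312 of 367 (85.0%, interval 81.0 to 88.3). The part that the wider peaks of replicate 2 in the middle play in these shares was not tested.

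**Figure D2:**
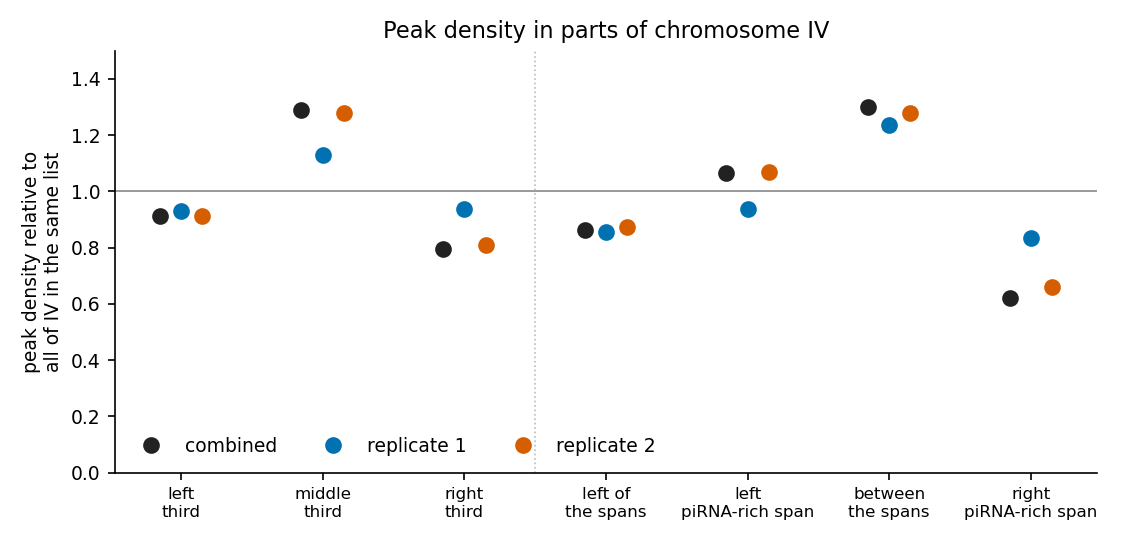
Peak density relative to all of IV in the same list (vertical axis, ratio, 1 marked by the line) in the 3 equal parts and in the stretches set by the piRNA-rich spans; each point is 1 list. In the combined list, replicate 1 and replicate 2, the stretch between the spans lies at 1.30, 1.24 and 1.28 and the right span at 0.623, 0.834 and 0.660; the last 0.274 Mb, right of the spans, is not drawn.

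The piRNA-rich spans, at 4.5 to 7.0 Mb and at 13.5 to 17.2 Mb, make up 35.5% of IV. Together they held 92.9 combined peaks per Mb against 128.5 on the rest of IV, a ratio of 0.723. The ratio was 0.820 in replicate 1 and 0.752 in replicate 2 (mean 0.786 ± 0.048, SD, n = 2). The spans differed from each other, however, and the deficit against the rest of IV lay mainly in the right one. That rest is mostly centre, with 6.5 of its 11.27 Mb between the spans. Set against a matching part of IV, as given below, the left span was lower in all 3 lists, but the right span was not lower in replicate 1.

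The left span held 309 combined peaks, or 123.6 per Mb, which was 0.962 times the rest of IV. Replicate 1 gave 31.6 per Mb (0.878 times the rest) and replicate 2 gave 42.4 (0.974 times). With recombination borders at 3.9 and 13 Mb this span lies in the chromosome's centre. Set against the centre beside it, from 7 to 13 Mb with 149.7 combined peaks per Mb, the ratio was 0.826 for the combined list, 0.777 for replicate 1 and 0.851 for replicate 2. All 3 lists thus had fewer peaks in the left span than in the neighbouring centre.

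The right span held 267 combined peaks, or 72.2 per Mb, which was 0.561 times the rest of IV. Replicate 1 gave 28.1 per Mb (0.781 times the rest) and replicate 2 26.2 (0.602 times), with a mean ratio of 0.691 ± 0.126 (SD, n = 2). The stretch between the spans, by comparison, held 150.8 combined peaks per Mb, 2.09 times the right span. That factor was 1.48 in replicate 1 and 1.94 in replicate 2. The right span lies on a chromosome arm. Against the left 4 Mb, the opposite arm, which held 95.8 combined peaks per Mb, its ratio was 0.754 for the combined list, 1.16 for replicate 1 and 0.819 for replicate 2. The direction of this last comparison differed between the replicates, and the spread between them (mean 0.989 ± 0.240, SD, n = 2) is larger than the difference from 1.

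Within the right span the numbers of combined peaks declined over several bins. The bins from 13500001 to 14000000, 14000001 to 14500000 and 14500001 to 15000000 held 54, 41 and 46 combined peaks. The next ones held 37, 25, 24 and 27. In the same bins replicate 1 held 16, 11, 17, 15, 14, 14 and 12 peaks, with little decline, and replicate 2 held 15, 12, 21, 13, 10, 13 and 8. The bin from 16000001 to 16500000, with 24, was the emptiest of the 34 on IV in the combined list, but not in the replicates, where it ranked 20 (14 peaks) and 27 (13 peaks) counted from the fullest. The right span was bordered by a dense bin, from 13000001 to 13500000, with 82 combined peaks, 27 in replicate 1 and 31 in replicate 2, which ranked 4, 4 and 2.

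The peaks that the right span did hold had higher median scores than those on the rest of IV in all 3 lists. Their median score in replicate 1 was 246.8, against 172.6 on the rest of IV, and in replicate 2 it was 222.6 against 165.5, so the replicates gave 1.43 and 1.34 times. In the combined list the medians were 8.50 and 7.48. Both replicates supported 85 of its 267 combined peaks (31.8%, interval 26.5 to 37.6), compared with 327 of 1449 on the rest of IV (22.6%, interval 20.5 to 24.8) and 66 of 309 in the left span (21.4%, interval 17.2 to 26.3). Of the replicate 2 peaks in the right span, 62 of 97 (63.9%, interval 54.0 to 72.8) overlapped replicate 1, against 261 of 491 on the rest (53.2%, interval 48.7 to 57.5), intervals that overlap. In the other direction the order was reversed, with 89 of 104 replicate 1 peaks in the right span (85.6%, interval 77.6 to 91.1) and 365 of 406 on the rest (89.9%, interval 86.6 to 92.5) overlapping replicate 2, and these intervals overlap too. Combined peaks matched by replicate 1 only made up 5.24% in the right span (interval 3.15 to 8.61) and 2.28% on the rest (interval 1.63 to 3.18).

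The deficit in the right span differed with the score of the peaks. Among the 405 highest-scoring combined peaks of IV, the density in the right span was 0.817 times that of the rest, and among the 4 lower groups of 405 it ran from 0.454 to 0.545 times. When each list was divided at its median IV score, the lower-scoring 50% gave ratios of 0.512 for the combined list, 0.583 for replicate 1 and 0.520 for replicate 2. The higher-scoring 50% gave 0.612, 0.990 and 0.684. For the higher-scoring peaks of replicate 1 the density in the right span was thus nearly that of the rest of IV. Density of peaks in both replicates was 22.97 per Mb in the right span and 29.0 per Mb on the rest, and of peaks in neither 22.97 and 48.6 per Mb.

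**Figure D3:**
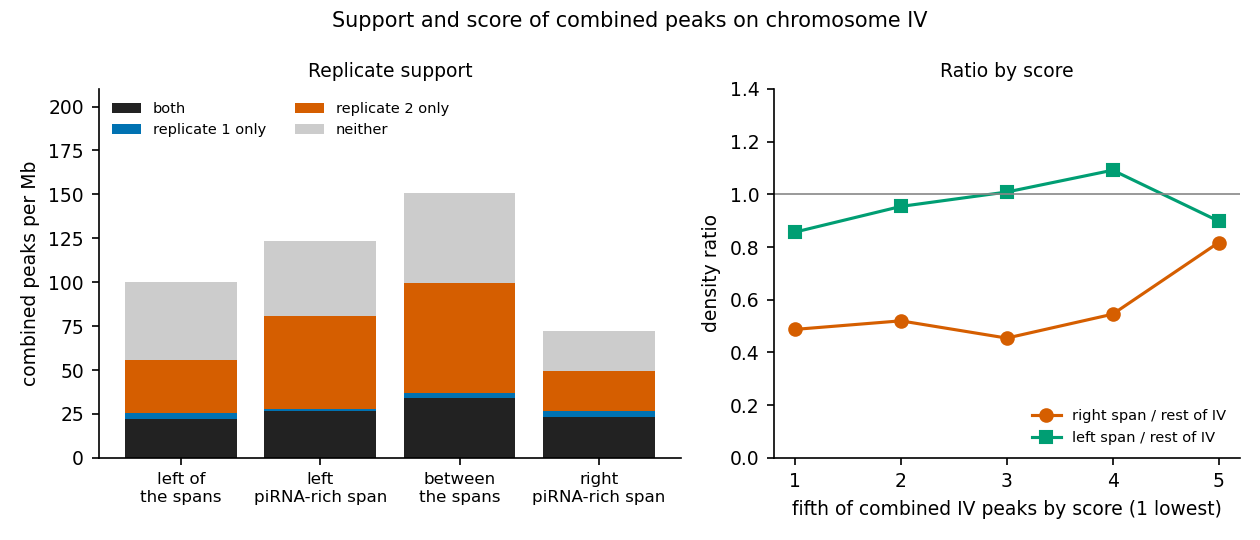
Left, combined peaks per Mb (vertical axis) in 4 stretches of IV, stacked by which replicate lists they overlap; right, density in each piRNA-rich span divided by that on the rest of IV, for the combined IV peaks in 5 groups of 405 from lowest to highest score. Peaks in both replicates vary less between stretches (22.2, 26.4, 34.3 and 22.97 per Mb) than all peaks, and the right span reaches 0.817 in the highest score group.

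The shape of IV was set beside the other autosomes over 10 equal segments, each relative to its own chromosome's mean. In the combined list IV lay outside the range of I, II, III and V in 3 segments. It was above that range in segment 1 at the left end (0.795, range 0.501 to 0.733) and in segment 2 (0.879, range 0.370 to 0.811), and below it in segment 10 at the right end (0.444, range 0.656 to 1.05). Replicate 2 gave the same sides for segment 1 (0.807, range 0.517 to 0.714) and segment 10 (0.490, range 0.569 to 1.13), and had IV below the range in segments 4 and 6. Replicate 1 had segments 1 and 10 inside the range, at 0.662 (range 0.580 to 0.879) and 0.747 (range 0.545 to 1.14). It had IV above the range in segments 5 and 9 and below it in segment 6, so no segment lay outside on the same side in all 3 lists. Segment 6 was the one below the range in both replicates. It stood at 1.10 (range 1.30 to 1.82) in replicate 1 and 1.27 (range 1.33 to 1.57) in replicate 2. In the combined list it was inside, at 1.30 (range 1.21 to 1.60). When the 2 piRNA-rich spans were scaled onto the other autosomes, the stretch matching the right span had a relative density of 0.499 on V, 0.611 on I, 0.837 on III and 0.923 on II in the combined list, and 0.623 on IV. The sparse right span of IV therefore lay within what other autosomes showed at that place. For the left span the matching values were 1.07 on II, 1.19 on I, 1.21 on III and 1.29 on V, and 1.07 on IV. In replicate 1 the left span of IV, at 0.937, was under the 4 others (1.02 to 1.11), and in replicate 2, at 1.07, it was too (1.18 to 1.37).

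**Figure D4:**
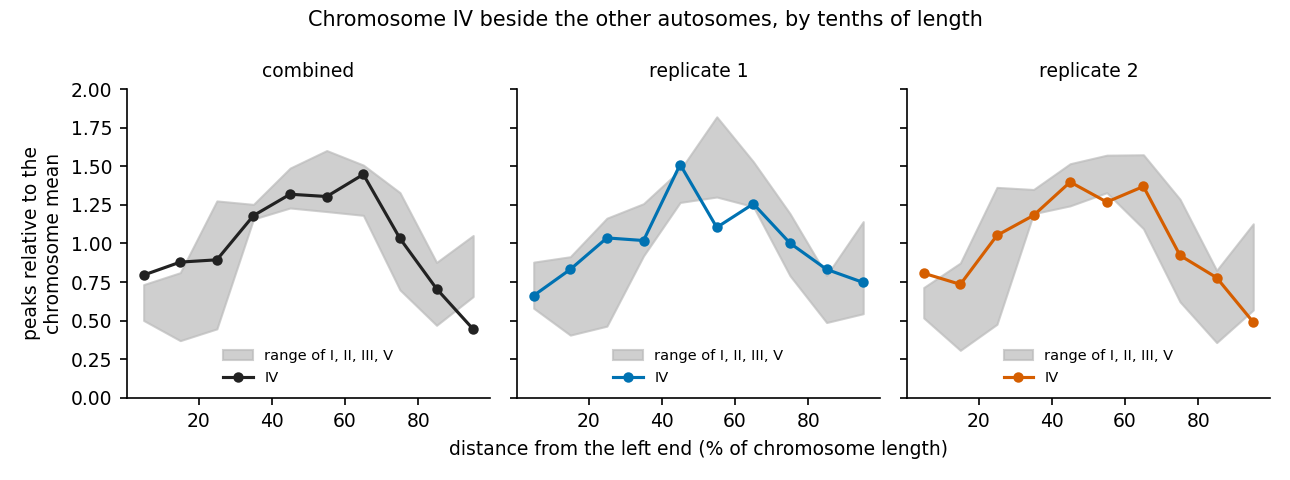
Peaks in each of 10 equal segments relative to the chromosome's mean (vertical axis, ratio) against distance from the left end in percent of length, with IV as a line and the range of I, II, III and V in grey, 1 panel per list. The rightmost segment of IV is under the grey range in the combined list (0.444) and replicate 2 (0.490) and inside it in replicate 1 (0.747).

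The left end of IV, where the pairing centre lies, was compared with the right end. In the outermost 2 Mb, the combined list had 181 peaks on the left and 108 on the right, a density ratio of 1.68. Replicate 2 had 61 and 41 (ratio 1.49). Replicate 1 had 43 and 50 (ratio 0.860). The combined list and replicate 2 thus placed more peaks at the pairing centre end, and replicate 1 fewer, so the difference (mean replicate ratio 1.17 ± 0.444, SD, n = 2) was within the spread between replicates. Over the outermost 4 Mb the ratios were 1.34, 0.890 and 1.25 in the combined list, replicate 1 and replicate 2, and over the outer parts of 5.82 Mb 1.15, 0.995 and 1.13.

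In the left 2 Mb, 91 of the 181 combined peaks (50.3%, interval 43.1 to 57.5) had no match in either replicate, and 30 (16.6%, interval 11.9 to 22.7) were in both. In the right 2 Mb, 47 of 108 had no match (43.5%, interval 34.6 to 52.9) and 35 were in both (32.4%, interval 24.3 to 41.7). The intervals overlap for peaks without a match and not for peaks in both. Among the lower-scoring 50% of IV peaks the left and right 2 Mb held 93 and 49 combined peaks, 25 and 22 in replicate 1 and 40 and 21 in replicate 2. Among the higher-scoring 50% they held 88 and 59 combined peaks, 18 and 28 in replicate 1 and 21 and 20 in replicate 2. In replicate 1 the order of the ends thus turned between the lower and the higher scores. Median scores in the left 2 Mb were below those in the right 2 Mb in each list: 7.48 and 9.20 for combined peaks, 136.6 and 198.7 for replicate 1, and 94.9 and 154.1 for replicate 2. Of the combined peaks, 3 of 181 in the left 2 Mb and 5 of 108 in the right 2 Mb reached 1 kb in width.

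At the extreme left, replicate 1 had a peak at 1 to 247 and replicate 2 at 4 to 657. Both were weak, since 80.4% of the replicate 1 peaks and 96.6% of the replicate 2 peaks in the genome scored higher. The combined list had no peak there, and its first on IV stood at 51288 to 51527 (score 25.5), with a match in each replicate. At the right the combined list ended with a peak at 17474112 to 17474262, of score 4.03 and without a match. The last peaks of the replicates lay 140.4 kb (replicate 1) and 93.3 kb (replicate 2) before that position, and the true chromosome end is not given in the lists.

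The median distance from one combined midpoint to the next was 2.32 kb, and 38.1% of the edge to edge distances were under 1 kb. The other chromosomes gave 28.6% (X) to 41.97% (III), so short distances were common across the genome. In the replicate lists, which hold fewer peaks, the median spacing was 12.4 and 12.95 kb (mean 12.7 ± 0.400, SD, n = 2), with 25% and 18.8% of distances under 1 kb. Over the 3 equal parts of IV the denser part had the shorter spacing in the combined list. The median was 1.97 kb in the middle part, 2.56 kb in the left and 2.87 kb in the right. Between chromosomes spacing did not always follow density. In replicate 1 the medians on I, II, III and V were 8.94, 8.01, 6.42 and 8.15 kb. All lay below the 12.4 kb of IV, although V held fewer peaks per Mb than IV. In replicate 2 I, II and III had 10.5, 10.6 and 9.78 kb, below IV, and V had 14.0 kb, above it. With combined peaks under 1 kb apart taken as 1 group, IV held 1254 groups, of which 886 were single peaks, 368 had more than 1 member and 47 had at least 5. These 368 groups held 56.2% of all combined peaks on IV. Of the 47 large groups 26 lay between the piRNA-rich spans, 9 in the left span, 8 to its left and 4 in the right span.

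The 5 groups with the most peaks held 11 or 12 each. They stood at 4398509 to 4409010, 8587004 to 8594768 and 9664110 to 9674407 with 12 peaks, and at 4014407 to 4028639 and 5600168 to 5610197 with 11. Replicate 2 covered 70.1% to 94.2% of their length with 2 to 5 peaks, so what the combined list divided into short peaks was read there as a few long ones. Replicate 1 covered 5.81% to 49.5%. The group at 4014407 was the longest, at 14.2 kb, with 12 replicate 1 peaks and 4 replicate 2 peaks, the widest of these 7130 bp. In the group at 8587004, 1 of 12 combined peaks was matched by both replicates, and in that at 4014407 8 of 11 were. Over the whole of IV, 282 of 694 replicate 2 peaks (40.6%) spanned at least 2 combined peaks, up to 9 in 1 peak, and 96 spanned at least 2 replicate 1 peaks.

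Wide peaks of the combined list formed a small set, most of which overlapped a peak of any width in both replicates. On IV 115 combined peaks (5.68%) were 1 kb or wider, and 109 of them overlapped both replicates, as did all 26 of at least 2 kb. The 115 were spread over the chromosome, with 36 in the left, 47 in the middle and 32 in the right part. In the replicate lists, 66 of 589 IV peaks (11.2%) of replicate 1 and 654 of 694 (94.2%) of replicate 2 reached 1 kb. The widest combined peak spanned 6090 bp at 4467816 to 4473905, just left of the left piRNA-rich span. Replicate 1 had a peak of 6062 bp there and replicate 2 of 7119 bp, both with the score 3100.0. The replicate 1 peak ran from 4467919 to 4473980, close to the combined boundaries. The next widest were 4932 bp at 14619414 to 14624345, inside the right span, 3824 bp at 3743466 to 3747289, 3804 bp at 7958283 to 7962086 and 3591 bp at 11912981 to 11916571. Of all nuclear combined peaks, 2.31% to 7.10% scored higher than 4 of these wide peaks, and 18.4% scored higher than the one at 7958283 to 7962086. Over all IV peaks wider ones tended to score higher within each list (Spearman rho 0.659 for the combined list, 0.859 for replicate 1 and 0.694 for replicate 2, over 2025, 589 and 694 peaks).

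The 10 highest-scoring combined peaks of IV with a match in both replicates had scores of 138.1 to 174.1 and widths of 589 to 2262 bp, and no IV peak of as high a score lacked a match. They lay 4 in the left, 3 in the middle and 3 in the right part, too few to set against the density of peaks. Of the 10, 2 lay in the right piRNA-rich span and none in the left. The first was a 668 bp peak at 13881643 to 13882310 (score 174.1), where replicate 1 scored 1749 over 725 bp and replicate 2 3100.0 over 4921 bp. The other one in the right span stood at 14824423 to 14825501 (score 145.9), with 3100.0 in replicate 1 and 1559 in replicate 2. In the middle part a peak at 8073549 to 8074411 had the second rank (154.2), and a neighbouring pair at 8431550 to 8433811 (139.97) and 8469474 to 8471366 (141.8) ranked 7 and 6. On the left the sites were at 385344 to 386242 (139.7), 1094128 to 1094716 (138.1), 1345351 to 1346335 (145.1) and 4445603 to 4447473 (138.97), and the remaining one was at 12390538 to 12391439 (144.8). At these sites no more than 7.89% of the replicate 1 list, and 11.9% of the replicate 2 list, scored above the overlapping peak. How the combined list was made is not stated, so its ranking cannot be taken as independent of the replicates.

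Stretches of at least 50 kb without a combined peak numbered 6.49 per Mb in the right piRNA-rich span, 3.2 in the left span, 3.11 to its left and 1.69 between the spans. Of these 4 stretches, replicate 2 also had the most in the right span (7.57 per Mb) and the fewest between the spans (4.31). Replicate 1 ordered them differently, with 8.44 per Mb to the left of the spans, 7.57 in the right span, 7.08 between the spans and 5.60 in the left span. The longest without a combined peak was 169.1 kb, at 16676174 to 16845310 in the right span. It was followed by 164.6 kb at 6157108 to 6321753 and 149.1 kb at 4927544 to 5076600, both in the left span, 132.4 kb at 16249678 to 16382087 in the right span, and 132.1 kb at 3875649 to 4007738 outside the spans. Of the 10 longest, 3 lay in the right span, 2 in the left and 5 outside, where the spans hold 35.5% of the length. In the combined list the longest on each other chromosome ran from 136.3 kb on II to 213.5 kb on V. In replicate 1 these ran from 295.0 kb on X to 449.5 kb on I, all above the 208.7 kb of IV. In replicate 2 they ran from 167.3 kb on III to 469.9 kb on V, against 188.5 kb on IV.

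Of these 10 stretches, 4 held no replicate peak either. The others were met by 1 peak in at least 1 replicate, at their edges only. With the 3 lists pooled, the 10 stretches were still empty over 101.6 to 168.8 kb each. The 4 without a replicate peak were those at 6157108 to 6321753, 4927544 to 5076600, 16519340 to 16647069 and 3399387 to 3505936. In the replicate lists the longest stretches were 208.7 kb in replicate 1 (16249719 to 16458368) and 188.5 kb in replicate 2 (1859955 to 2048436), and the stretch around 6.2 Mb ranked the second in replicate 1 (205.3 kb) and the third in replicate 2 (181.7 kb). When the 3 lists were pooled, 56 stretches of at least 50 kb held no peak at all, 24.4% of the length of IV. They took up 47.0% of the right span, 28.8% of the left span, 26.4% of the part to its left and 9.37% of the stretch between the spans. The right span thus had 6.22 such stretches per Mb and the stretch between the spans 1.54.

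**Figure D5:**
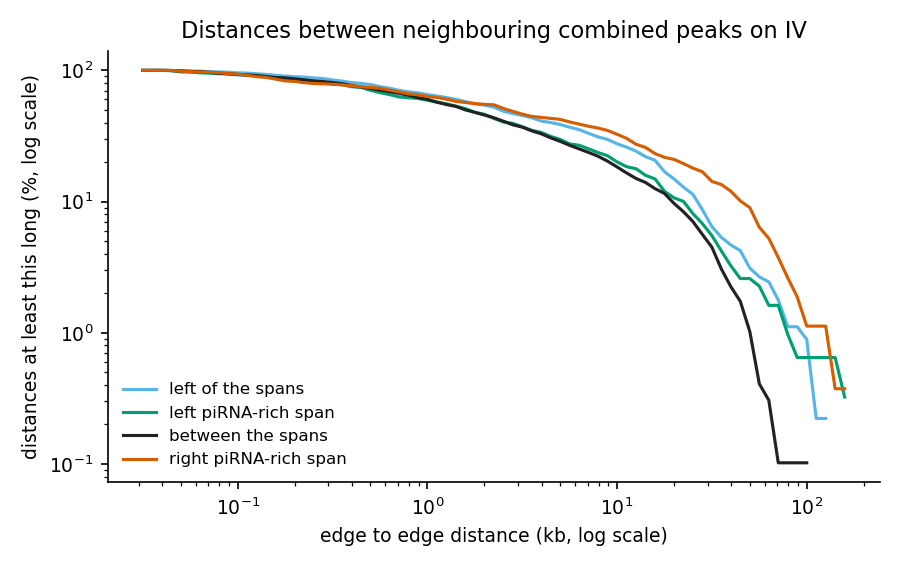
Share of edge to edge distances between neighbouring combined peaks that are at least a given length (vertical axis, percent, log scale) against that length (kb, log scale), for 4 stretches of IV. The right piRNA-rich span has the largest share of distances from 10 to 100 kb, with a 95th percentile of 62.7 kb against 30.7 kb between the spans, 32.8 kb in the left span and 36.2 kb to its left.

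Short distances were common in all 4 of these stretches. The share of edge to edge distances under 500 bp was 25.8% in the right span, 29.4% in the left span, 26.9% between the spans and 22.0% to the left of the spans. The median distance ranged from 1.60 kb between the spans to 2.71 kb in the right span. The replicates differed here. In replicate 1 the share under 500 bp was 20.2% in the right span, 11.2% in the left span and 16.2% between the spans, and in replicate 2 it was 9.28%, 8.49% and 15.5%.

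Peak-dense bins were found at the borders of the sparse stretches as well as in the centre. The fullest bin of the combined list, from 11000001 to 11500000, held 97 peaks, and that from 8500001 to 9000000 held 96. In replicate 1 these bins ranked 7 and 11, with 23 and 22 peaks, and in replicate 2 they ranked 10 and 4, with 26 and 29 peaks. Replicate 1 had its fullest bin at 4000001 to 4500000, with 33 peaks, directly left of the left piRNA-rich span. That bin ranked 12 in the combined list (67 peaks) and 6 in replicate 2 (28 peaks). The bin from 5500001 to 6000000, inside the left span, ranked 3 in the combined list (92 peaks), 2 in replicate 1 (30) and 6 in replicate 2 (28), whereas the bins on either side of it held 44 and 49 combined peaks. The left span was thus uneven, and in all 3 lists the bin from 5500001 to 6000000 held more peaks than its neighbours. The last bin of the span, from 6500001 to 7000000, held 74 combined peaks, 15 in replicate 1 and 27 in replicate 2.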

How the data were processed

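Peak intervals with 1 score per peak were analysed from 3 deposited lists, 1 for each HTP-3 ChIP replicate and a combined list. Per the file headers the build is WormBase WS220 (ce10 per the submitters' processing notes, which also name BWA as the aligner). The deposited scores come from MACS for the replicates and MACS v2 for the combined list, as the source field of each deposited record states. The sources used here do not give the score scale, the control, the thresholds or how the combined list was made. Per the labels' protocols chromatin was crosslinked in EGS and then in EGS with formaldehyde, sonicated, and precipitated with an affinity-purified rabbit antibody. The 2 input libraries were not analysed here.

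The lists were read with pandas 2.3.3 and numpy 2.4.6 under Python 3.11.15. Wilson intervals were computed from their formula and checked on an example with scipy 1.17.1. Plots came from matplotlib 3.10.9. Peaks were placed by midpoint, and the extent of a chromosome was the largest peak end in any list. Functions were tested on simulated data. The chromosome, its spans, the comparisons and the rule for named regions (10 highest scores with both replicates, 5 widest peaks, 5 longest empty stretches, 5 largest groups, fullest and emptiest bins, first and last peaks) were chosen with earlier results of these data known. Stretches empty in all lists, division at the median score and the scaled spans were added after the data were seen, as were the bins and highest-ranking stretches named for a single replicate list.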

Additional observations from a re-analysis of the deposited data

How the results depend on the processing

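Each of 12 results was recomputed with 1 choice changed at a time, giving 53 values. Of these, 30 moved by less than the replicate spread or counting interval. The spread is the SD of the same 2 replicate lists that also serve as alternatives. For median width it was so large that any value up to 950.9 bp counted as unmoved. The count of 30 is therefore no measure of stability. Leaving out a replicate here means using the list of the other one in place of the combined list. The density of IV relative to the other chromosomes then ran from 0.992 to 1.03, the latter, without replicate 2, on the other side of 1. The left to right ratio of the outer parts ran from 0.995 to 1.13, and the value without replicate 2, 0.995, reversed the direction. It was 1.68 over the outermost 2 Mb and 1.34 over the outermost 4 Mb. The middle to outer ratio ran from 1.21 to 1.49, that of both piRNA-rich spans to the rest from 0.752 to 0.820, that of the left span from 0.878 to 0.974 and that of the right span from 0.602 to 0.781. Against 7 to 13 Mb the left span had 0.826, and against the left 4 Mb the right span had 0.754. With a reciprocal overlap of at least 50%, the share of combined peaks in both replicates was 3.31%, that of replicate 1 peaks in replicate 2 was 8.66% and the converse 7.35%. In the higher-scoring 50% of each list these shares were 26.5%, 86.1% and 62.8%. The median spacing was 12.4 to 12.95 kb without a replicate, 6.73 kb in the higher-scoring 50% and 4.50 kb after merging peaks under 500 bp apart. The median width ran from 481 to 1402 bp and the longest empty stretch from 188.5 to 208.7 kb. The cause of these shifts was not tested. No paired analysis was possible because the peak lists cover the ChIP group only, so no value of another group could be paired with theirs, and no result comes from a test. Read depth is unknown, so no detection limit can be given for any list.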
